A study of Mus musculus with 5 samples.

Results

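Obstruction of the ureter was compared with sham surgery in whole mouse kidney by single-cell RNA sequencing. The comparison used 1 droplet library of sham kidneys, the day 0 point, and 1 library of kidneys on day 7 of UUO, or unilateral ureteric obstruction, a blockage of the tube that drains a kidney, so that urine backs up into that organ. Both libraries came from the kidneys of C57/BL6 mice aged 8 weeks, each library pooled 3 mice, and the labels name no other agent or allele for either group. Kidneys had been digested on ice and live cells sorted by exclusion of the dye DAPI, and RNA 3′ ends were counted with unique molecular identifiers (UMIs), tags that let copies of 1 molecule be counted once. Of the 10442 cells deposited for both libraries, 4830 were compared (648 sham and 4182 day 7 cells), out of 16876 cells in all 4 droplet libraries of the study. A cell was kept if it had 200 genes or more and no more than 20% mitochondrial UMIs.

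The kept cells were pooled first and then split into 3 groups gated on marker genes. The epithelial gate required at least 1 UMI of Epcam, an adhesion molecule of epithelia, and no Ptprc, the leukocyte antigen CD45. The endothelial gate required at least 2 UMIs of Egfl7, a protein secreted by endothelium, and no Ptprc, and the leukocyte gate at least 1 UMI of Ptprc. UMIs were summed over the cells of a population and given as CPM, in which each count is scaled to the same library total so that populations of different depth can be compared, and a ratio is log2 of day 7 over sham after adding 1 CPM to each, which understates differences of low genes. A gene was counted as higher or lower on day 7 where its ratio was at least 2-fold, among genes with at least 30 UMIs over both libraries and 20 CPM in the higher one. With 1 library per group there was no replicate and no test. Ratios are followed by their exact 95% interval, which covers counting error alone, and the effect of obstruction cannot be told apart from differences between the pools of mice or between the preparations.

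The kidney filters blood in glomeruli, capillary tufts wrapped by podocytes, and the filtrate then passes along the proximal tubule, the loop of Henle, the distal tubule and the collecting duct. The proximal tubule recovers most of the filtered sodium, phosphate, glucose, amino acids and protein and depends on mitochondria and fatty acid oxidation, and the principal cells of the collecting duct take up water under control of vasopressin. Ureteric obstruction is widely used as a model of progressive kidney damage, in which injured tubules are known to lose transport proteins and to secrete chemokines, monocytes enter and become macrophages, and collagen is laid down between the tubules.

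The libraries differed in the mitochondrial share of their cells. The median share of mitochondrial UMIs over the deposited cells was 40.6% in sham and 3.00% on day 7, and the filters kept 10.9% of sham and 92.9% of day 7 cells. The limit acted unevenly on cell types. Of the sham cells with epithelial markers 10.2% were kept, against 79.3% of those with at least 2 UMIs of endothelial and 77.5% of those with at least 2 UMIs of leukocyte markers. The corresponding day 7 shares were 83.6%, 97.6% and 95.5%. The kept cells held 2312864 UMIs in sham and 28994318 on day 7, with medians of 2731.5 and 5880.0 UMIs per cell. The libraries shared 39 cell barcodes, 0.657% of the sham and 0.866% of the day 7 cells.

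**Figure D1:**
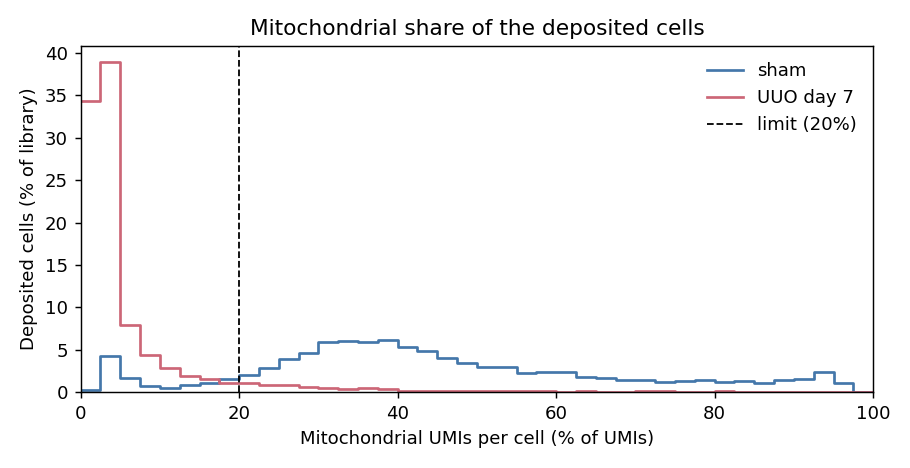
Share of deposited cells (y axis, % of each library) by the share of their UMIs that came from mitochondrial genes (x axis, %, bins of 2.5 points), for the sham and day 7 libraries; the dashed line marks the limit of 20%. Sham cells lie mostly to the right of the limit (10.9% of sham cells were kept), and day 7 cells to the left (92.9% kept).

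Most kept day 7 cells and few kept sham cells fell in the leukocyte gate when all UMIs were used. The leukocyte gate held 75 of 648 sham cells (11.6%, 95% interval 9.21 to 14.3%) and 2950 of 4182 day 7 cells (70.5%, 69.1 to 71.9%). The endothelial gate held 176 sham cells (27.2%, 23.8 to 30.8%) and 426 day 7 cells (10.2%, 9.29 to 11.1%). The epithelial gate held 92 sham cells (14.2%, 11.6 to 17.1%) and 444 day 7 cells (10.6%, 9.70 to 11.6%), intervals that lie next to each other without overlap. The other 47.5% of sham and 9.92% of day 7 cells were in no gate. Because a gate needs only 1 or 2 UMIs, its share depends on depth. With every cell thinned to 1000 UMIs, which no kept cell fell short of, the leukocyte share was 6.33% in sham and 32.8% on day 7, the endothelial 14.7% and 5.07%, and the epithelial 7.72% and 6.36%. At that depth the epithelial intervals overlapped (5.78 to 10.0% in sham and 5.64 to 7.14% on day 7). Shares of kept cells are also set by the mitochondrial limit and the sort. At a limit of 50%, sham shares were 2.59% leukocyte, 4.93% endothelial and 7.81% epithelial, and those of day 7 were 67.3% leukocyte, 9.71% endothelial and 11.8% epithelial, so that the endothelial and epithelial differences turned direction.

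**Figure D2:**
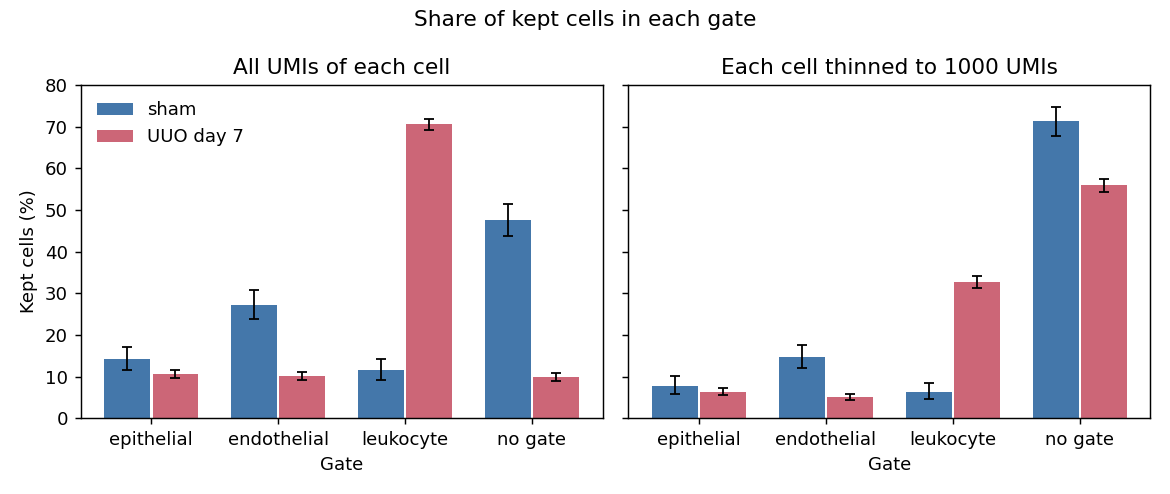
Share of kept cells (y axis, %) in each gate for sham and day 7, with all UMIs (left) and with each cell thinned to 1000 UMIs (right); bars start at 0 and error bars are exact 95% intervals for counting error, with 1 library per group. The leukocyte bar of day 7 exceeds that of sham in both panels (70.5% against 11.6%, and 32.8% against 6.33%).

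Each gate held the markers of its cell type, together with transcripts of other types that differed between the libraries. All 6 epithelial markers were at 20 CPM or more in the epithelial gate of both libraries, as were the 8 endothelial markers in the endothelial gate and the 7 leukocyte markers in the leukocyte gate. Epcam, Egfl7 and Ptprc are among these markers and were fixed by the gate rule, and the others were not used by it. The 7 proximal tubule markers summed to 6367 CPM in the epithelial, 3350 CPM in the endothelial and 4454 CPM in the leukocyte gate of sham, and at equal depth 96.6% of sham endothelial and 97.3% of sham leukocyte cells had at least 1 of their UMIs. On day 7 the sums were 3310, 1391 and 847 CPM and those shares 37.3% and 37.1%. Phagocyte transcripts did the opposite. Their 7 markers summed to 57.6 CPM in the epithelial and 38.4 CPM in the endothelial gate of sham, and to 2098 and 1967 CPM on day 7, beside 2083 CPM for the epithelial markers in the epithelial gate. At equal depth at least 2 of their UMIs were found in 52.7% of day 7 epithelial cells and 54.5% of day 7 endothelial cells, and in none of the 92 and 176 sham cells. At that depth this allows sham shares of up to 3.26% and 1.70% if 3 cells are taken as the limit of a count of 0 (exact upper limits 3.93% and 2.07%). With all UMIs, at least 2 were found in 3.26% and 1.14% of these sham cells and in 99.55% and 98.4% of those of day 7. Cells with markers of more than 1 gate made up 1.23% of sham and 14.0% of day 7 cells. Haemoglobin transcripts, of red cells, had medians of 4.10, -0.61 and 7.00 over 4 genes in the epithelial, endothelial and leukocyte gates (4.13, -0.62 and 4.29 with genes at 0 in sham at their bound), the endothelial one turned to 2.19 with cells thinned to 1000 UMIs, and of 5 sex-linked transcripts the 2 or 3 above the minimum in each population differed by less than 2-fold. The part of free RNA and doublets in a gate's ratios was not tested.

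**Figure D3:**
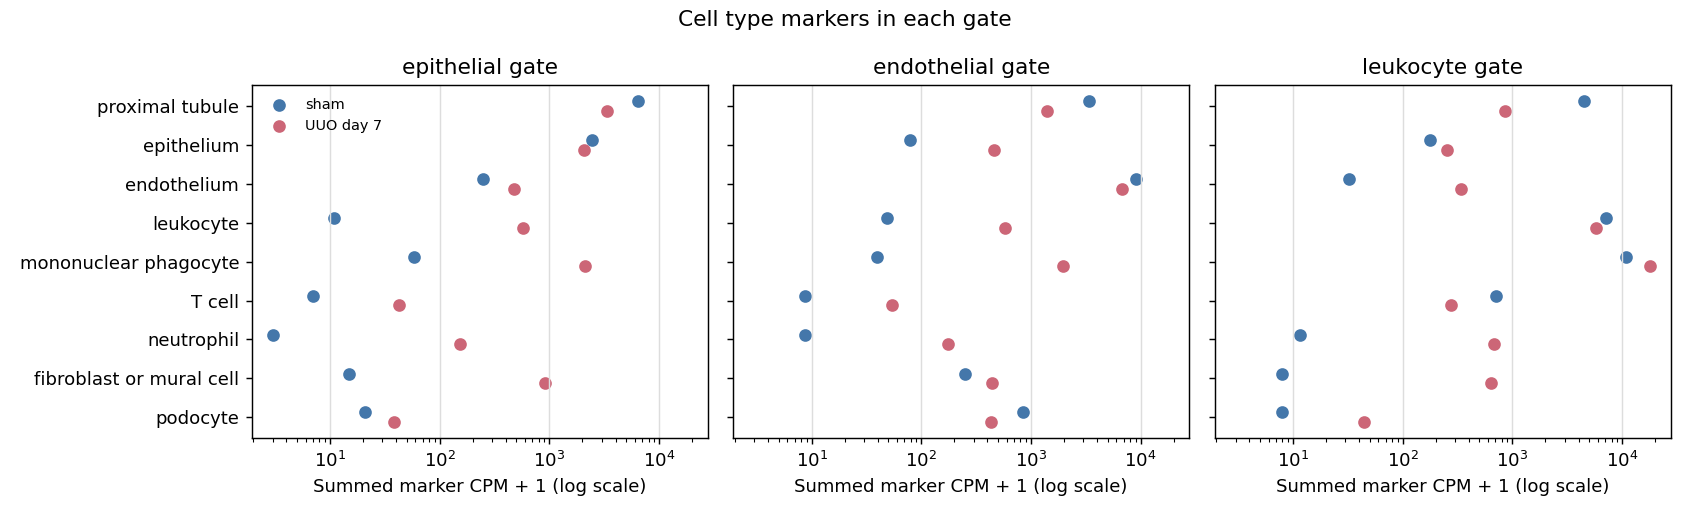
Summed CPM plus 1 of 9 cell type marker lists (x axis, log scale) in the epithelial, endothelial and leukocyte gates, for sham and day 7 (1 library each). Proximal tubule markers are present in every sham gate (3350 to 6367 CPM), and phagocyte markers are low in the sham epithelial and endothelial gates (57.6 and 38.4 CPM), against 2098 and 1967 CPM in those of day 7.

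Over all cells, transcripts of the proximal tubule were lower on day 7, and those of phagocytes, chemokines and collagen were higher. Of 7386 genes with enough UMIs, 827 were at least 2-fold higher on day 7 (11.2%) and 1325 at least 2-fold lower (17.9%). This balance depends on the mitochondrial limit and the scaling. At a limit of 50% it was 2486 higher and 937 lower genes (72.6% higher), and at 10% it was 652 and 1457 (30.9%). Scaling by TMM or by DESeq2 size factors added 0.27 or 0.26 to each ratio, which gave 1168 higher and 919 lower genes with TMM (56.0% higher, against 38.4%) and 1160 and 922 with size factors. A summed level does not tell fewer cells of a type from less RNA per cell. All 24 proximal tubule genes had ratios below 0 and 23 were at least 2-fold lower (1 was below the minimum), with a median of -3.68 beside -0.01 over all detected genes. Slc34a1 (chr13:55398187-55415592), the phosphate transporter of the brush border, was at 1454 CPM in sham and 58.2 CPM on day 7 (ratio -4.62, -4.70 to -4.54). Miox, which opens the ring of inositol, went from 1463 to 40.3 CPM (-5.15, -5.24 to -5.05). The 12 largest decreases were Car3, Spp2, Miox, G6pc, Slc6a19, Slc22a8, Inmt, Dnase1, Cyp2d26, Slc34a1, Ces1d and Car14, with ratios from -5.93 for the carbonic anhydrase Car3 to -4.45 for Car14, and they include the neutral amino acid transporter Slc6a19, the glucose-releasing enzyme G6pc and the organic anion transporter Slc22a8. In sham cells of no gate Slc34a1 was at 2884 CPM.

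All 19 nuclear-encoded respiratory chain genes had ratios below 0 over all cells, with a median of -1.01, and 10 were at least 2-fold lower, beside 17.9% of all genes. After TMM scaling 2 of the 19 were, beside 919 lower genes from a set whose 20 CPM minimum was applied after rescaling. Ndufa4, of the electron transport chain, went from 1561 to 593 CPM (-1.39, -1.45 to -1.34) and Cyc1, cytochrome c1, from 362 to 143 CPM (-1.33, -1.44 to -1.23). Of 17 fatty acid oxidation and peroxisome genes, 10 were at least 2-fold lower and none higher over all cells (median -1.52). In the epithelial, endothelial and leukocyte gates 19, 18 and 18 of the 19 respiratory chain genes had ratios below 0, and 1, 0 and 0 were 2-fold lower (medians -0.70, -0.21 and -0.28). Of the fatty acid oxidation genes 1, 1 and 3 were (medians -0.65, -0.30 and -0.58), and 1 was higher in leukocytes, beside 9.1%, 5.27% and 7.27% of all genes lower in these gates. With cells thinned to 1000 UMIs the leukocyte median turned to 0.51. Over all cells the 15 glycolysis genes had a median of -0.38, or 0.47 at a mitochondrial limit of 50%. Only Hk2, a hexokinase, was past 2-fold (6.05 to 59.4 CPM), beside 11.2% of all genes higher and 17.9% lower.

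The 12 largest increases over all cells were Ccl17, S100a8, Ccl7, Ccl8, Igha, Col1a1, Col3a1, Fcrls, S100a9, Jchain, Clec4n and Timp1. Ccl17 (chr8:94810453-94812036), a chemokine for T cells bearing CCR4, had 0 UMIs in sham and 8077 on day 7, or 279 CPM, at least 215-fold higher against a floor of 3 counts in sham. Ccl8 and Ccl7, monocyte attractants, were at 213 and 155 CPM on day 7 with 1 and 0 UMIs in sham. S100a8 and S100a9, abundant in neutrophils and monocytes, had 2 and 3 UMIs in sham and ratios of 7.44, 6.29 to 8.19 and 6.53, 5.47 to 7.39. Col1a1 (chr11:94936224-94953042) and Col3a1 encode fibrillar collagens and had 3 and 6 UMIs in sham, against 269.6 and 383 CPM on day 7 (ratios 6.88, 5.82 to 7.74 and 6.74, 5.85 to 7.62). Igha and Jchain, of secreted IgA, were at 0 in sham, and 49.9% and 50.9% of their day 7 UMIs came from 1 cell. Of the 18 chemokines, 14 were at least 2-fold higher and none lower (median 3.35), as were 18 of the 19 phagocyte genes (median 3.04), all 7 genes of MHC class II presentation (median 2.25) and 10 of 20 matrix genes (median 2.46), beside 11.2% of all genes higher and 17.9% lower. At a mitochondrial limit of 50% the medians of the chemokine, phagocyte, class II and matrix lists were 5.38, 5.22, 4.44 and 3.64. At a limit of 10% they were 2.73, 2.55, 1.71 and 1.85. With 10 CPM added in place of 1 CPM, the matrix median was 1.17. Acta2, the smooth muscle actin used as a marker of myofibroblasts, was the exception in the matrix list at 183 CPM in sham and 48.0 CPM on day 7 (-1.91, -2.07 to -1.75), but its ratio was 0.28 at a mitochondrial limit of 50%, and in the cells of no gate, which held 388 of its 424 sham UMIs, it was at 384 CPM in sham and 381 CPM on day 7. The 15 endothelial identity genes all had ratios below 0, 13 of them at least 2-fold (median -1.48). That direction turned with a mitochondrial limit of 50%, where the median was 0.75.

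**Figure D4:**
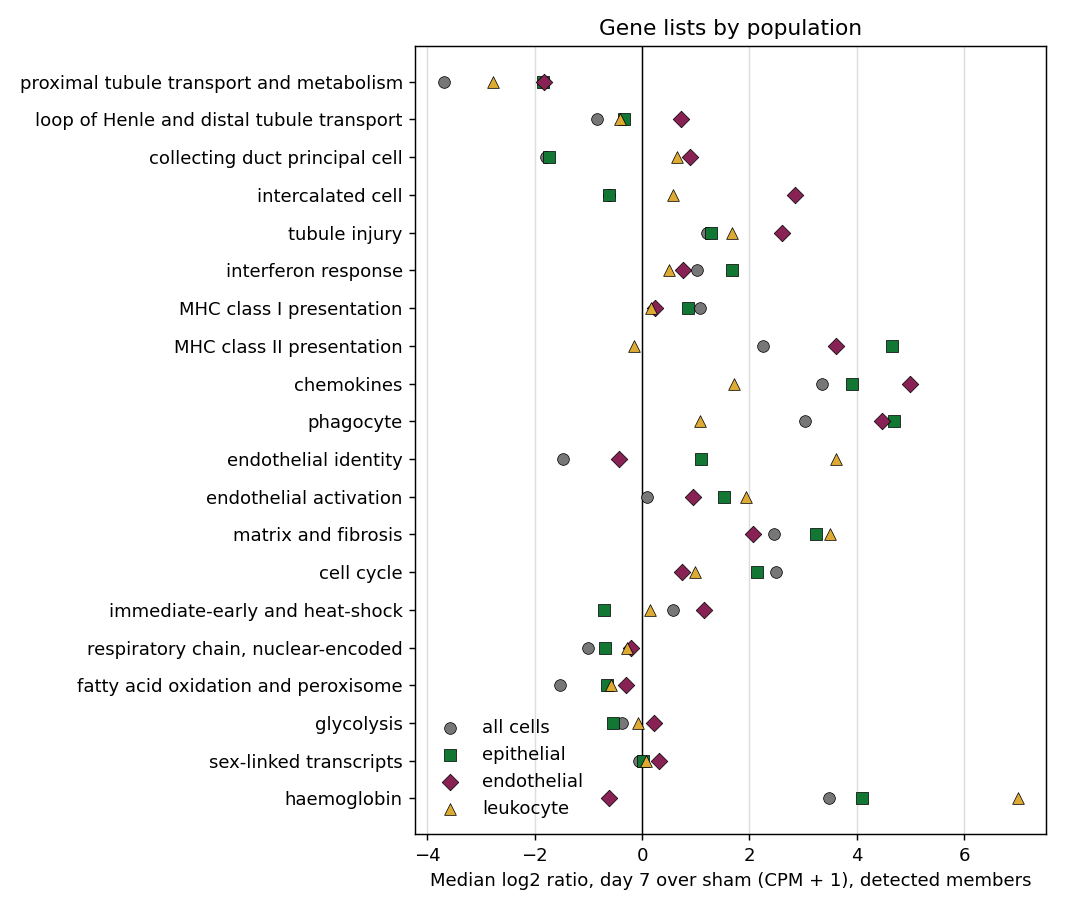
Median log2 ratio of day 7 over sham (x axis, CPM plus 1) over the detected members of 20 gene lists (y axis) in all cells and in the 3 gates, 1 library per group. Proximal tubule genes lie below 0 in every population (-3.68 to -1.83), MHC class II genes lie above 0 except in the leukocyte gate (-0.16), and immediate-early and heat-shock genes lie below 0 in the epithelial (-0.70) and above 0 in the endothelial gate (1.15).

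Within the epithelial gate, genes of tubule injury were higher and transporters of the proximal tubule and water channels of the collecting duct lower on day 7. Of 7208 genes, 570 were at least 2-fold higher (7.91%) and 656 at least 2-fold lower (9.1%). TMM scaling added 0.13 to each ratio and gave 732 and 505, with the 20 CPM minimum applied after rescaling. The median over all detected genes was 0.16. Of the 25 tubule injury genes, 14 were higher, 1 lower and 8 neither, and 2 were below the minimum (median 1.29, or 2.36 at a mitochondrial limit of 50%). Havcr1 (chr11:46735080-46779578), or KIM-1, the phosphatidylserine receptor of injured proximal tubule, had 0 UMIs in 92 sham cells and 284 on day 7, or 68.4 CPM, at least 11.5-fold higher, and its CPM was higher still in the day 7 cells of no gate, which had 238 of its UMIs. Lcn2 (chr2:32384633-32388252), the iron-siderophore binding protein NGAL, was at 61.6 CPM in sham and 1667 CPM on day 7 (4.74, 4.24 to 5.28), with UMIs in 7.61% and 73.4% of the cells and 61.3% of its 31 sham UMIs in 1 cell. Clu (chr14:65968483-65981547), a secreted chaperone, went from 217 to 4896 CPM (4.49, 4.22 to 4.78), beside 982 and 569 CPM in the day 7 endothelial and leukocyte gates. Spp1 (chr5:104435118-104441050), osteopontin, was at 2748 CPM in sham and at 31345 CPM on day 7 (3.51, 3.43 to 3.59). Members of the list were also higher in the other gates, and some were at higher levels there than in epithelium (Tm4sf1 was at 2189 CPM in sham endothelium and 37.8 CPM in sham epithelium), with 15 of 25 genes higher and 1 lower in endothelial cells (median 2.61, or 1.84 with genes at 0 in sham at their bound and 1.52 without cells carrying markers of more than 1 gate) and 13 higher and none lower in leukocytes (median 1.67, or 0.97 at the bound). Over all genes, 7.5% were higher and 5.27% lower in the endothelial gate, and 9.97% higher and 7.27% lower in the leukocyte gate. Spp1 was at 129 and 7935 CPM in endothelial (5.94, 5.59 to 6.30) and at 164 and 3958 CPM in leukocyte cells (4.59, 4.18 to 5.03). Lcn2 was at 0 UMIs in both of these sham gates and at 395 and 159 CPM on day 7. The day 7 levels of both genes were highest in the epithelial gate, and the part of free RNA was not tested.

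The list also holds adhesion, complement and keratin genes. Vcam1, an adhesion molecule of tubules that fail to repair, went from 17.9 to 119 CPM (2.67, 1.77 to 3.72), beside 157 CPM in the day 7 cells of no gate. The complement component C3 went from 15.9 to 158 CPM (3.24, 2.29 to 4.35), beside 330.4 CPM in those cells. In sham 1 cell held 88.9% of the 9 Vcam1 UMIs and 87.5% of the 8 C3 UMIs. The keratin Krt8 was at 147 and 405 CPM (1.46, 1.12 to 1.81), whereas Krt7 was at 336 and 359 CPM (0.10, -0.13 to 0.33). Sox9, a transcription factor of regenerating tubule, and Cd44, the hyaluronan receptor, had 0 UMIs in sham and were at 31.6 and 32.8 CPM on day 7, at least 5.29-fold and 5.49-fold higher. Cd44 was at 96.5 CPM in the day 7 leukocyte gate. Cryab, a small heat-shock protein abundant in the medulla, was the member lower on day 7, at 2730.5 and 349.7 CPM (-2.96, -3.07 to -2.85).

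Many genes past 2-fold in a gate had their highest level in another gate, so genes led by 1 gate were described apart. These were genes whose CPM, in the library where they were higher, was at least 2 times that of each other gate and above that of the cells in no gate, a condition chosen after the values had been seen. In the epithelial gate 77 of the 570 higher and 305 of the 656 lower genes met it. The share of all genes that met it in each gate is not given, so these counts are not read as a difference between directions. The 12 largest increases led by the epithelial gate were Igha, Timp1, Jchain, Il1f6, Sprr2f, Mmp7, Lcn2, Clu, Cxcl17, Spp1, Krt19 and Pigr. Igha and Jchain rested on 1 day 7 cell, which held 93.8% and 96.6% of their UMIs in the gate. Il1f6 (chr2:24215418-24225702), the cytokine IL-36 alpha of epithelia, was at 0 UMIs in sham and 169.6 CPM on day 7 (at least 28.4-fold higher), with UMIs in 14.6% of cells and 12.1 and 16.6 CPM in the endothelial and leukocyte gates. Sprr2f, a cornified envelope protein, and Mmp7, matrilysin, were also at 0 in sham and at 93.5 and 50.3 CPM on day 7, with 39.4% and 38.8% of their UMIs in 1 cell each. Timp1, an inhibitor of matrix metalloproteinases, was at 0 in sham and 296 CPM on day 7, 42.1% of it in 1 cell, beside 233 CPM in the day 7 cells of no gate. Cxcl17, a mucosal chemokine, had 1 UMI in sham and was at 54.2 CPM on day 7 (4.21, 2.18 to 5.72). Pigr, which carries IgA across epithelia, went from 13.9 to 109.6 CPM (2.89, 1.89 to 4.08), and the keratin Krt19 from 9.94 to 83.3 CPM (2.95, 1.79 to 4.33), with 71.4% of 7 and 60.0% of 5 sham UMIs in 1 cell each.

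**Figure D5:**
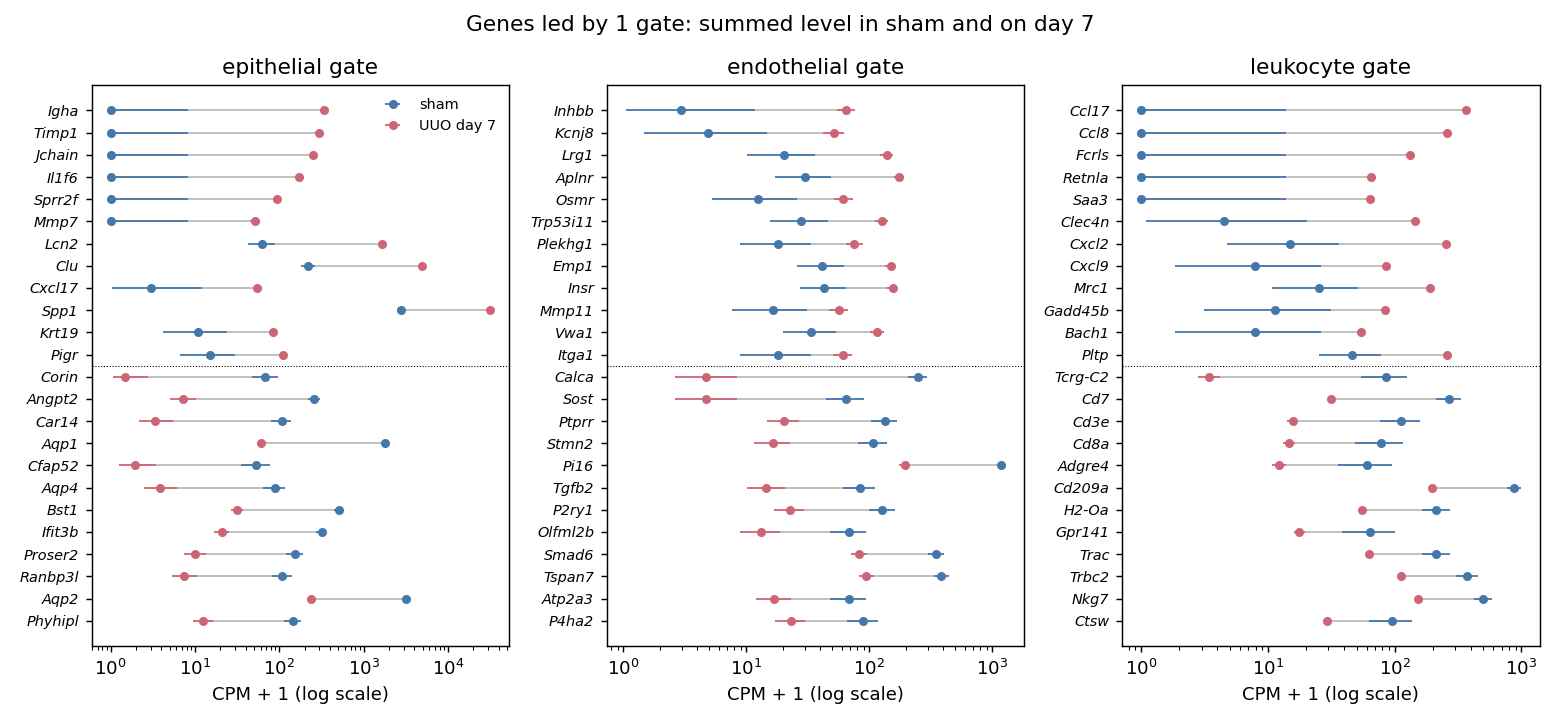
Summed level (x axis, CPM plus 1, log scale) in sham and on day 7 of the 12 largest increases (above the dotted line) and 12 largest decreases among genes led by the epithelial, endothelial or leukocyte gate; points are 1 library each and bars are exact 95% Poisson intervals for counting error. Aqp2 lies at 3198 CPM in sham and 239 CPM on day 7 in the epithelial gate, and Ccl17 at 0 and 365 CPM in the leukocyte gate.

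Water channel genes of the collecting duct were lower in the epithelial gate. All 10 principal cell genes had ratios below 0, and 6 of them at least 2-fold (median -1.74, or -0.97 at a mitochondrial limit of 10%), beside 9.1% of all genes lower. Aqp2 (chr15:99579055-99584547), the water channel regulated by vasopressin, was at 3198 CPM in sham and 239 CPM on day 7 (-3.74, -3.85 to -3.62), and Aqp3, the basolateral channel of the same cells, at 733 and 67.7 CPM (-3.42, -3.65 to -3.19). The vasopressin receptor Avpr2 went from 87.4 to 13.5 CPM (-2.61, -3.18 to -2.03). The epithelial sodium channel subunits Scnn1a, Scnn1b and Scnn1g had ratios of -1.15, -0.88 and -0.78, of which Scnn1a alone passed 2-fold, and its ratio was 1.01 at a mitochondrial limit of 10%. Cells with more UMIs of the principal cell markers than of any other segment's made up 16 of 92 sham and 64 of 444 day 7 epithelial cells, 17.4% (10.3 to 26.7%) and 14.4% (11.3 to 18.0%), intervals that overlap. Without the markers Fxyd2 and Kap in the assignment these shares were 18.5% and 19.8%. Of the epithelial cells, 27.2% in sham and 18.2% on day 7 had at least 1 Aqp2 UMI, at medians of 4591 and 8434 UMIs per cell.

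Intercalated cell genes, which serve acid secretion, had a median of -0.61, with 4 of 9 lower and none higher by 2-fold, beside 9.1% and 7.91% of all genes in the gate, and the median was 0.63 at a mitochondrial limit of 10%. The anion exchanger Slc4a1 went from 53.7 to 8.67 CPM (-2.50, -3.21 to -1.76, with 66.7% of its sham UMIs in 1 cell), the ammonia transporter Rhcg from 344 to 91.3 CPM (-1.90, -2.16 to -1.64) and the receptor Insrr, a sensor of alkaline pH, from 57.6 to 7.47 CPM (-2.79, -3.51 to -2.05). The proton pump subunit Atp6v1b1 was at 121 and 129.6 CPM (0.10, -0.29 to 0.50), an interval that includes 0. At a mitochondrial limit of 10% the median of the list was 0.63.

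Of 14 loop of Henle and distal tubule genes, 4 were higher, 2 lower and 6 neither, beside 7.91% and 9.1% of all genes, and the median of -0.33 was 1.06 at a mitochondrial limit of 10% and -1.19 at 50%. Umod, uromodulin of the thick ascending limb, was at 1256 CPM in sham and 2610.1 CPM on day 7 (1.05, 0.94 to 1.17), while Slc12a1, the furosemide-sensitive cotransporter of the same segment, was at 767 and 400.1 CPM (-0.94, -1.10 to -0.77). Slc12a3, the thiazide-sensitive cotransporter of the distal convoluted tubule, and Trpv5, an apical calcium channel, were higher at 29.8 to 163 CPM (2.41, 1.70 to 3.22) and 13.9 to 53.7 CPM (1.88, 0.86 to 3.07), with 53.3% of 15 and 42.9% of 7 sham UMIs in 1 cell each. Egf, the growth factor precursor made by the distal tubule, was lower at 632 to 72.7 CPM (-3.10, -3.33 to -2.87), as was the calcium-binding protein Calb1 at 280.2 to 70.6 CPM (-1.97, -2.27 to -1.68). The direction of single genes turned with the mitochondrial limit, to -0.82 for Umod and -0.19 for Slc12a3 at 50% and to 0.19 for Calb1 at 10%. The sham values rest on few cells, since 12 of the 92 were assigned to the thick ascending limb and 1 to the distal convoluted tubule, against 97 and 4 of 444 on day 7. Without the markers Fxyd2 and Kap in the assignment these were 29 and 1 in sham and 164 and 19 on day 7.

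Proximal tubule genes were lower in the epithelial gate, where 17 of 24 were at least 2-fold lower and none higher, with 6 below the minimum (median -1.84), beside 9.1% of all genes lower. Slc34a1 was at 364 CPM in sham and 62.9 CPM on day 7 (-2.51, -2.79 to -2.24), and the endocytic receptor Lrp2, megalin, at 63.6 and 24.1 CPM (-1.36, -1.94 to -0.76). The same genes were lower in the gates that should lack them, with medians of -1.83 in endothelial and -2.77 in leukocyte cells, and Slc34a1 at 324 and 352 CPM in those sham gates. The share of epithelial cells assigned to the proximal tubule by their markers was 60.9% in sham and 41.7% on day 7, but 29.3% and 7.43% once the markers Fxyd2 and Kap were left out. Within the cells assigned with all 7 markers, an assignment that shares genes with the list, 13 of the 24 proximal tubule genes were at least 2-fold lower and none higher (median -1.53), and 12 of 25 tubule injury genes were higher and 1 lower (median 1.09). Of 7267 genes in these cells, 14% were higher and 11.2% lower, with a median of 0.20 over all detected genes. As the assignment moved with its markers, no single gene is given for these cells.

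Among the 12 largest decreases led by the epithelial gate were the membrane protein genes Aqp1 and Aqp4. Aqp1, the water channel of the proximal tubule and thin limb, went from 1775 to 60.0 CPM (-4.86, -5.07 to -4.66) and Aqp4, a basolateral water channel, from 87.4 to 2.89 CPM (-4.51, -5.28 to -3.71), with 52.3% of its sham UMIs in 1 cell. Corin, the protease that activates natriuretic peptides, had 34 UMIs in sham and 2 on day 7 (-5.53, -6.09 to -4.50). Angpt2, an angiopoietin, was at 258 and 6.26 CPM (-5.16, -5.73 to -4.60), and Bst1, an ectoenzyme that hydrolyses NAD, at 505 and 30.6 CPM (-4.00, -4.31 to -3.69). The others were Car14, Cfap52, Ifit3b, Proser2, Ranbp3l, Aqp2 and Phyhipl, with ratios from -4.96 for Car14 to -3.52 for Phyhipl.

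Immediate-early and heat-shock genes, which respond to tissue handling and stress within minutes, differed in part in epithelium and endothelium. In the epithelial gate 7 of 18 were at least 2-fold lower and none higher, with 10 neither and 1 below the minimum (median -0.70), 4 after TMM scaling, and the median was 0.41 at a mitochondrial limit of 50% and -1.13 at 10%. Fos (chr12:85473890-85477273), a subunit of AP-1, was at 1067 CPM in sham and 358 CPM on day 7 (-1.57, -1.72 to -1.43), and the inducible chaperone Hspa1a at 358 and 114 CPM (-1.65, -1.89 to -1.39). In the endothelial gate 10 were higher, none lower and 8 neither (median 1.15), with Fos at 44.1 and 269 CPM (2.58, 1.99 to 3.23) and Hspa1a at 71.0 and 198 CPM (1.47, 0.99 to 1.99), and 60.9% and 59.5% of their sham UMIs in 1 cell each. In the leukocyte gate 4 of the 18 were higher and 3 lower, with Fos at 209 and 422 CPM (1.01, 0.65 to 1.40). Over all genes, 9.1% were lower in the epithelial gate, 7.5% higher in the endothelial, and 9.97% higher and 7.27% lower in the leukocyte gate. The part of dissociation, mitochondrial share or free RNA in these values was not tested.

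Most endothelial identity genes differed by less than 2-fold in the endothelial gate, as did most of all genes there. Of 7387 genes, 554 were at least 2-fold higher (7.5%) and 389 lower (5.27%), with a median of 0.14 over all detected genes. Of 15 endothelial identity genes, 1 was higher, 2 were lower and 12 neither (median -0.43). Pecam1, the junction protein CD31, was at 666 CPM in sham and 688 CPM on day 7 (0.05, -0.12 to 0.22), the cadherin Cdh5 at 524 and 509.5 CPM (-0.04, -0.23 to 0.16), and the VEGF receptor Flt1 at 656 and 757 CPM (0.21, 0.04 to 0.38). Intervals of Pecam1 and Cdh5 include 0. Those lower by 2-fold were Ehd3 (chr17:73804134-73832094), an endocytic protein known as a marker of glomerular endothelium, at 1971 and 736 CPM (-1.42, -1.53 to -1.30), and Eng, the TGF-beta co-receptor endoglin, at 1263 and 494 CPM (-1.35, -1.49 to -1.21). Igfbp3, a binding protein of insulin-like growth factors, was higher at 574 and 1366 CPM (1.25, 1.08 to 1.43).

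Genes led by the endothelial gate made up 53 of the 554 higher and 196 of the 389 lower genes. The 12 largest increases were Inhbb, Kcnj8, Lrg1, Aplnr, Osmr, Trp53i11, Plekhg1, Emp1, Insr, Mmp11, Vwa1 and Itga1. Inhbb, the beta B subunit of activin and inhibin, had 1 UMI in sham and was at 64.0 CPM on day 7 (4.48, 2.45 to 5.96), with UMIs in 20.7% of day 7 cells. Aplnr (chr2:85136225-85139923), the apelin receptor of growing vessels, went from 28.8 to 174 CPM (2.55, 1.83 to 3.37), and its ligand Apln from 19.2 to 55.1 CPM (1.47, 0.58 to 2.50), with 50% of its 10 sham UMIs in 1 cell. Lrg1, a secreted modifier of TGF-beta signalling, was at 19.2 and 137 CPM (2.78, 1.91 to 3.78), and Osmr, the oncostatin M receptor, at 11.5 and 60.7 CPM (2.30, 1.20 to 3.59). The insulin receptor Insr was at 42.2 and 154 CPM (1.84, 1.23 to 2.51). The basement membrane collagens Col4a1 and Col4a2 were at 244 and 175 CPM in sham and 756 and 433 CPM on day 7, with ratios of 1.63, 1.37 to 1.90 and 1.31, 1.00 to 1.63. In the epithelial gate of day 7 Col4a1 was at 227 CPM and in the leukocyte gate at 60.0 CPM.

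The 12 largest decreases led by the endothelial gate were Calca, Sost, Ptprr, Stmn2, Pi16, Tgfb2, P2ry1, Olfml2b, Smad6, Tspan7, Atp2a3 and P4ha2. Calca (chr7:114631478-114636357), which encodes calcitonin and the vasodilator CGRP, was at 248 CPM in sham and 3.74 CPM on day 7 (-5.71, -6.61 to -4.85), from UMIs in 7.39% and 1.41% of the cells, 45.7% of the sham UMIs being in 1 cell. Sost, sclerostin, went from 63.3 to 3.74 CPM (-3.76, -4.76 to -2.77), Pi16 from 1178 to 193 CPM (-2.60, -2.79 to -2.42), and Smad6, an inhibitor of BMP signalling, from 347 to 81.3 CPM (-2.08, -2.39 to -1.78). The podocyte gene Nphs1, nephrin, was at 48.0 CPM in the same sham gate and at 9.81 CPM on day 7, where 95.2% of its UMIs came from 1 cell. The part of glomerular cells in the ratio of Ehd3 was not tested.

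Of 19 activation genes of endothelium, 5 were higher, 2 lower and 6 neither, and 6 were below the minimum, beside 7.5% of all genes higher and 5.27% lower in the gate. Vcam1, which binds leukocyte integrins, was at 36.5 CPM in sham and 149.9 CPM on day 7 (2.01, 1.36 to 2.74), with 119 CPM in the day 7 epithelial gate. Icam1, another integrin ligand, was at 61.4 and 67.7 CPM (0.14, -0.41 to 0.73), an interval that includes 0, and the selectins Sele and Selp had 1 and 0 UMIs in sham and 11 and 24 on day 7. Ctgf, a matricellular protein induced by stretch and shear, was lower at 55.6 and 14.9 CPM (-1.83, -2.56 to -1.08, with 58.6% of its sham UMIs in 1 cell, and 0.043 with cells thinned to 1000 UMIs), as was Ly6c1, a surface antigen of mouse endothelium, at 3124 and 1314 CPM (-1.25, -1.34 to -1.16). Edn1, the vasoconstrictor endothelin, was at 106 and 57.0 CPM in endothelium (-0.88, -1.34 to -0.40) and at 25.8 and 90.6 CPM in epithelium (1.77, 1.00 to 2.65).

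In the leukocyte gate, many phagocyte and chemokine genes were higher on day 7, and some genes of T and natural killer cells lower. Of 6451 genes, 643 were at least 2-fold higher (9.97%) and 469 lower (7.27%), with a median of 0.19 over all detected genes, and the sham side rests on 75 cells and 286950 UMIs. Of 19 phagocyte genes, 11 were higher and 1 lower (median 1.08). Transcripts of other cell types were also higher here. Endothelial identity genes were higher for 10 of 15 members and lower for none (median 3.62, or 1.68 with genes at 0 in sham at their bound), and the endothelial markers summed to 31.4 CPM in sham and 338 CPM on day 7, with UMIs at equal depth in 4.00% and 17.5% of cells. Matrix genes were higher for 9 of 20 and lower for none (median 3.50, or 0.79). The part of these transcripts in the gate's ratios was not tested. Among the phagocyte genes, the complement subunits C1qa, C1qb and C1qc, abundant in tissue macrophages, were at 1411, 1352 and 1018 CPM in sham and 2991, 2848 and 2015 CPM on day 7, with ratios of 1.08, 1.07 and 0.98. Apoe, a lipid carrier, went from 2795 to 10458 CPM (1.90, 1.80 to 2.01), the mannose receptor Mrc1 from 24.4 to 191 CPM (2.92, 1.90 to 4.15), and Adgre1, the antigen F4/80, from 59.2 to 230.1 CPM (1.94, 1.27 to 2.70). Ly6c2, a marker of inflammatory monocytes, was the member lower on day 7 at 272 and 122 CPM (-1.15, -1.47 to -0.81), while Ccr2, the receptor for their exit from marrow, was at 659 and 651 CPM (-0.02, -0.22 to 0.20). At equal depth at least 2 UMIs of the phagocyte markers were found in 64.0% of sham and 90.3% of day 7 leukocyte-gate cells, but also in 52.7% of epithelial and 54.5% of endothelial cells of day 7 and in none of those of sham, so the difference between the leukocyte gates is not read as a difference in cells.

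Most chemokine genes were higher in the leukocyte gate. Of 18 members, 10 were higher, 1 lower and 4 neither, with 3 below the minimum (median 1.71), beside 9.97% of all genes higher and 7.27% lower. The median was 1.39 with genes at 0 in sham at their bound. It was 1.03 with 10 CPM added in place of 1 CPM, and 2.62 with cells thinned to 1000 UMIs. Ccl17 had 0 UMIs in sham and was at 365 CPM on day 7 (at least 34.9-fold higher), in 25.1% of cells, and Ccl8 (chr11:82115185-82116799) was likewise at 0 and 257 CPM (at least 24.6-fold). Cxcl2, a neutrophil attractant, went from 13.9 to 253 CPM (4.09, 2.79 to 5.73), and Pf4 from 20.9 to 269.8 CPM (3.63, 2.54 to 4.96). Ccl2, the main ligand of CCR2, was at 112 and 196 CPM (0.81, 0.31 to 1.35). In sham 1 cell held 50% of the 4 Cxcl2 and of the 6 Pf4 UMIs and 46.9% of the 32 Ccl2 UMIs. Ccl5, made by T and natural killer cells, was lower at 1739 and 567 CPM (-1.61, -1.74 to -1.48). Cxcl9, a T cell attractant that was counted with the interferon genes and not among the 18, went from 6.97 to 84.0 CPM (3.41, 1.70 to 5.53), both of its sham UMIs in 1 cell. Other increases led by this gate were Fcrls, a scavenger-receptor family member, at 130.3 CPM and Retnla, a resistin-like protein of alternatively activated macrophages, at 63.9 CPM, both with 0 UMIs in sham (at least 12.5-fold and 6.11-fold higher). Clec4n (Dectin-2), Saa3, Gadd45b, Bach1 and Pltp completed the 12 (1 cell held 43.6% of the day 7 Saa3 UMIs), and 16.0% of the 643 higher genes were led by the gate.

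Of the 469 lower genes, 116 were led by the gate, and the 12 with the lowest ratios were Tcrg-C2, Cd7, Cd3e, Cd8a, Adgre4, Cd209a, H2-Oa, Gpr141, Trac, Trbc2, Nkg7 and Ctsw. Cd3e, of the T cell receptor complex, was at 112 CPM in sham and 14.6 CPM on day 7 (-2.85, -3.37 to -2.28), the receptor alpha chain Trac at 213 and 61.8 CPM (-1.77, -2.14 to -1.37), and Cd8a at 76.7 and 13.6 CPM (-2.41, -3.03 to -1.73), with 54.5% of its 22 sham UMIs in 1 cell. Nkg7, a granule protein of cytotoxic cells, went from 498 to 151 CPM (-1.72, -1.96 to -1.47). Of the 5 T cell markers Cd3d, Cd3e, Cd3g, Lck and Cd2, 4 were at least 2-fold lower and Cd3d had a ratio of -0.82. Of the 5 natural killer cell markers, Ncr1 and Nkg7 were at least 2-fold lower, while Klrb1c had a ratio of -0.98, Gzma of 0.85 and Prf1 was below the minimum. Over all genes of the gate, 7.27% were lower and 9.97% higher. At equal depth the share of leukocyte-gate cells with at least 2 UMIs of T cell markers was 16.0% in sham (8.55 to 26.3%) and 9.05% on day 7 (8.04 to 10.1%), intervals that overlap, and that of natural killer cell markers 14.7% (7.56 to 24.7%) and 6.54% (5.68 to 7.50%), against at most 0.450% in the day 7 epithelial and endothelial gates. As a share of all kept cells, T cell marker-positive cells were 2.31% in sham and 6.79% on day 7. Cd209a, a lectin of monocyte-derived dendritic cells, was also lower at 868 and 195 CPM (-2.15, -2.33 to -1.96), as was H2-Oa, a regulator of class II loading, at 213 and 54.3 CPM (-1.95, -2.32 to -1.55).

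None of the 7 class II presentation genes reached 2-fold in either direction in the leukocyte gate (median -0.16). Over all genes of the gate, 9.97% were higher and 7.27% lower, so most of all genes were also within 2-fold. The invariant chain Cd74 was at 36170.0 CPM in sham and 28249 CPM on day 7 (-0.36, -0.38 to -0.33), and H2-Ab1 at 12141 and 10881 CPM (-0.16, -0.21 to -0.11). In the epithelial and endothelial gates the medians were 4.65 and 3.61, with Cd74 at 2495 and 2450.5 CPM on day 7. Its regulator Ciita was at 3.37 and 8.41 CPM there, and the leukocyte markers summed to 577 and 584 CPM in the same gates. The part of leukocyte transcripts in these ratios was not tested. Cell cycle genes were higher in the leukocyte gate for 6 of 16 members (median 0.99), beside 9.97% of all genes, with the topoisomerase Top2a at 24.4 and 86.3 CPM (1.78, 0.76 to 3.02, 71.4% of 7 sham UMIs in 1 cell) and the proliferation antigen Mki67 at 1 sham UMI and 48.3 CPM (3.46, 1.27 to 5.50). In the epithelial and endothelial gates 12 and 11 of the 16 were below the minimum.

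Interferon response genes were compared across the gates. Interferons act through transcription factors that bind the interferon-stimulated response element in promoters. Of 24 genes, 9 were higher and 2 lower in the epithelial gate (median 1.67, or 0.80 with a pseudocount of 10 CPM), 7 higher and none lower in the endothelial gate (median 0.75), and 5 higher and 1 lower in the leukocyte gate (median 0.51). Over all genes the shares higher were 7.91%, 7.5% and 9.97% and those lower 9.1%, 5.27% and 7.27% in these gates. Isg15, a ubiquitin-like modifier, was higher in all 3, at 13.9 to 62.6 CPM in epithelium (2.09, 1.08 to 3.29), 134 to 332 CPM in endothelium (1.30, 0.95 to 1.67) and 97.6 to 204 CPM in leukocytes (1.06, 0.53 to 1.64). In sham epithelium it had 7 UMIs, 42.9% of them in 1 cell. The IFIT genes encode proteins that bind viral RNA and lie side by side on chromosome 19. Ifit3 (chr19:34583531-34588731) was at 423 CPM in sham epithelium, from UMIs in 37.0% of cells, and 46.5 CPM on day 7 (-3.16, -3.44 to -2.87). Its copy Ifit3b (chr19:34607970-34613401) went from 318 to 19.8 CPM (-3.94, -4.33 to -3.56) and Ifit2 from 57.6 to 9.15 CPM (-2.53, -3.22 to -1.81), whereas Ifit1 was at 23.8 and 25.5 CPM (0.09, -0.74 to 1.04). In endothelium Ifit3 was at 130.5 and 185 CPM (0.50, 0.13 to 0.89) and Ifit2 at 23.03 and 54.6 CPM (1.21, 0.38 to 2.15). Ifit3 and Ifit3b share near-identical sequence, so reads could be split between them and their separate values are uncertain.

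The promoters of these genes are shown because Isg15, Ifit1, Ifit3 and Ifit3b, the copy of Ifit3 outside the list, differed in ratio within the epithelial gate. The 200 bases before the start of transcription come from RefSeq on GRCm38.p6, are written 5′ to 3′ on the strand of the gene, and have in capitals each match to the response element core, GAAANNGAA, on either strand. Adjacent matches can overlap.
Ifit1 (chr19:34640689-34640888, plus strand): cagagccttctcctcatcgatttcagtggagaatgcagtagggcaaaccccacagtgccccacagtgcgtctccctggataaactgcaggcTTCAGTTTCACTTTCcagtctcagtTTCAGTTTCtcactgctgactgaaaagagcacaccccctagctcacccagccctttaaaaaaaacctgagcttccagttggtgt
Ifit3 (chr19:34583329-34583528, plus strand): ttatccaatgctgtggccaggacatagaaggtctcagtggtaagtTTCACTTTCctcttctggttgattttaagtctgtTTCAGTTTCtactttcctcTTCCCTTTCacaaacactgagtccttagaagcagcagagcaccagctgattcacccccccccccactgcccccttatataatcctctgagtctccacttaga
Ifit3b (chr19:34607757-34607956, plus strand): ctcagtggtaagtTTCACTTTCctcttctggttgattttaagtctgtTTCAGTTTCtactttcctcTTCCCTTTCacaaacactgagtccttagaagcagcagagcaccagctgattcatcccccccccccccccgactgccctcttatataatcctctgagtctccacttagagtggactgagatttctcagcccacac
Isg15 (chr4:156200819-156201018, minus strand): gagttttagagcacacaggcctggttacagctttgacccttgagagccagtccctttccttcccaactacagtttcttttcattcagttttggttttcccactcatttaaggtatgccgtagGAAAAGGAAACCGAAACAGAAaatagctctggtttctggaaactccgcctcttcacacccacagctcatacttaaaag
Within windows of 250 bases before to 50 bases after the start, the core was found in 12 of the 17 interferon genes that had a window (70.6%), and in 2638 of 27025 genes overall (9.76%). Ifit1, Ifit3, Ifit3b and Isg15 each hold 3 matches in the bases shown. The windows of Ifit3 and Ifit3b share an unbroken run of 169 of 300 bases. A site for NF-kappa-B, GGGANTTTC, was in 2 of 12 chemokine genes with a window (16.7%), Cxcl1 and Cxcl2, in 1 of 19 tubule injury genes (5.26%), Tm4sf1, and in 349 of 27025 genes (1.29%). A match is a description of the letters and does not show binding.

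Of 14 class I presentation genes, 4 were at least 2-fold higher in the epithelial gate and none in the endothelial and leukocyte gates (medians 0.85, 0.24 and 0.16), beside 7.91%, 7.5% and 9.97% of all genes. The immunoproteasome subunit Psmb8 was at 37.8 CPM in sham epithelium and 155 CPM on day 7 (2.01, 1.37 to 2.73), and at 716 CPM in day 7 leukocytes. B2m, the light chain of class I molecules, was at 570.4 and 1166 CPM in epithelium (1.03, 0.86 to 1.21), 3953 and 4315 CPM in endothelium (0.13, 0.06 to 0.20) and 4921 and 4877 CPM in leukocytes (-0.01, -0.09 to 0.06). The median of the list in the epithelial gate was 1.28 at a mitochondrial limit of 50% and 0.60 at 10%.

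The fibrillar collagens were highest in day 7 cells of no gate, with Col1a1 at 1541 CPM and Col3a1 at 2044 CPM there. Col1a1 and Col3a1 had 0 UMIs in all 3 gates of sham, and on day 7 were at 216 and 311 CPM in the epithelial, 92.5 and 118 CPM in the endothelial and 150.2 and 229 CPM in the leukocyte gate. In 1 epithelial-gate cell lay 27.9% of the gate's Col3a1 UMIs, and in 1 endothelial-gate cell 62.8%. Fibroblast and mural cell markers summed to 905, 441 and 631 CPM in these gates on day 7 and to 13.9, 251 and 6.97 CPM in sham. Vim, the intermediate filament vimentin, had 0 UMIs in sham epithelium and was at 135 CPM on day 7 (at least 22.7-fold higher), beside 709 CPM in endothelium and 476 CPM in leukocytes.

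Day 2 of UUO and 7 days after reversal were each sampled by 1 further droplet library, treated the same way, which place the day 7 values beside an earlier and a later point. Their deposited cells had median mitochondrial shares of 16.2% and 14.0%. The filters kept 55.3% and 56.1% of them, against 10.9% of sham and 92.9% of day 7 cells. The part of this filter in the order of the levels was not tested. Over all cells, Col1a1 had 9.27 CPM at day 2 and 122 CPM in the reversed kidneys, both below its 269.6 CPM of day 7. Ccl8 showed the same order (6.65 CPM at day 2, 94.99 CPM in reversed kidneys), whereas Ccl17 had already reached 217 CPM at day 2. In the epithelial gate Lcn2, Clu and Spp1 were higher at day 2 than at day 7, with 2738, 7862 and 57551 CPM, and lower in reversed kidneys, with 934, 3062 and 14518 CPM. Aqp2 in that gate had 829 CPM at day 2 and 425 CPM in reversed kidneys, between its sham and day 7 levels. Endothelial Aplnr had 29.4 CPM at day 2, beside 28.8 CPM in sham, and 229 CPM in reversed kidneys, and Calca had 57.7 and 31.8 CPM. Retnla in the leukocyte gate had 1.42 CPM at day 2 and 171 CPM in reversed kidneys, above its 63.9 CPM of day 7.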

How the data were processed

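Droplet count matrices of UMIs per gene and cell were analysed as the authors deposited them, as raw counts without normalization. The submitters' processing notes name Cell Ranger, STAR and the builds GRCm38 and mm10, and their versions and settings are not given in the sources used here. The plate-based library was not used here. A cell was kept with 200 genes or more and a mitochondrial share no higher than 20%, and UMIs were summed per library and gate into CPM. Log2 ratios had a pseudocount of 1 CPM, and a gene was counted with at least 30 UMIs over both libraries and 20 CPM in the higher one. Intervals were exact (Poisson for sums, Clopper-Pearson for shares, conditional binomial for ratios) and cover counting error alone. With 1 library per group no test was made. Each cell was also thinned to 1000 UMIs for shares at equal depth. Doublets were left in the main values, since Scrublet's automatic threshold marked 3 cells of one library and 1 of the other.

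Named genes were the 12 with the highest and the 12 with the lowest ratios among genes of at least 50 CPM in the higher library with UMIs in at least 5% of its cells, and members of 20 gene lists. Mitochondrial, ribosomal protein and haemoglobin genes, genes named Gm and a number, and Epcam, Ptprc and Egfl7 were left out of this ranking. The members, lists and marker sets were chosen with earlier results of these data known, and the condition that a gate lead a gene was added after the values had been seen. Of 28692 gene identifiers 28416 matched the GENCODE vM21 annotation, from which positions were taken. Alternatives were other mitochondrial limits, at least 500 genes per cell, thinning, removal of doublets or of cells with markers of more than 1 gate, other scalings, a pseudocount of 10 CPM, totals without mitochondrial genes and no filter on low genes. The calculation of ratios was tested on simulated counts. Scanpy 1.11.5, pandas 2.3.3, matplotlib 3.10.9, scipy 1.17.1 and numpy 2.4.6 were run under Python 3.11.15, with TMM factors from edgeR 4.0.16 and size factors from DESeq2 1.42.0 in R 4.3.3.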

Additional observations from a re-analysis of the deposited data

Results flagged for a closer look

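In 21 genes named above or belonging to the 20 gene lists, 26 pairs of gates had ratios at least 2-fold in opposite directions. Counting intervals are not printed here, and some are wide. That of Hspa1b in endothelial cells was 0.42 to 3.90, and that of Hsd11b2 in leukocyte cells was 0.55 to 4.38. With 1 library per group, none of these differences between gates was tested. Between the epithelial and endothelial gates they were Tm4sf1 (1.02 in epithelial, -1.21 in endothelial cells), Slc2a1 (-1.47 in epithelial, 2.06 in endothelial cells), Fxyd4 (-2.34 in epithelial, 1.57 in endothelial cells), Zfp36 (-1.24 in epithelial, 1.24 in endothelial cells), Ctgf (1.39 in epithelial, -1.83 in endothelial cells), Fos (-1.57 in epithelial, 2.58 in endothelial cells), Aqp2 (-3.74 in epithelial, 1.19 in endothelial cells), Hspa1a (-1.65 in epithelial, 1.47 in endothelial cells), Egr1 (-1.04 in epithelial, 2.11 in endothelial cells), Ifit2 (-2.53 in epithelial, 1.21 in endothelial cells), Tgfb2 (1.73 in epithelial, -2.52 in endothelial cells), Pltp (5.08 in epithelial, where it was at 0 UMIs in sham and at least 5.49-fold higher, and -1.01 in endothelial cells). Between the epithelial and leukocyte gates they were Nkg7 (4.66 in epithelial, where it was at 0 UMIs in sham and at least 4.08-fold higher, so that the ratio itself depends on the pseudocount, and -1.72 in leukocyte cells), Hsd11b2 (-1.80 in epithelial, 2.27 in leukocyte cells), Ccl5 (3.69 in epithelial, -1.61 in leukocyte cells), Fos (-1.57 in epithelial, 1.01 in leukocyte cells). Between the endothelial and leukocyte gates they were Eng (-1.35 in endothelial, 1.48 in leukocyte cells), Slc12a1 (1.13 in endothelial, -1.40 in leukocyte cells), Tm4sf1 (-1.21 in endothelial, 2.15 in leukocyte cells), Ccl5 (3.01 in endothelial, -1.61 in leukocyte cells), Ly6c1 (-1.25 in endothelial, 2.15 in leukocyte cells), Hspa1b (2.12 in endothelial, -1.05 in leukocyte cells), Hspa1a (1.47 in endothelial, -1.21 in leukocyte cells), Ehd3 (-1.42 in endothelial, 1.63 in leukocyte cells), Pltp (-1.01 in endothelial, 2.47 in leukocyte cells), Cd209a (3.14 in endothelial, -2.15 in leukocyte cells). Over all genes with enough UMIs in both gates, 34 of 6132 differed in this way between epithelial and endothelial cells, 19 of 5373 differed in this way between epithelial and leukocyte cells, 32 of 5524 differed in this way between endothelial and leukocyte cells. Several of these genes belong to another cell type than 1 of the gates, such as Aqp2 in endothelial and Nkg7 in epithelial cells, and the part of free RNA in their ratios was not tested.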

How the results depend on the processing

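No paired analysis was possible because each group had 1 library. Of 36 recomputed gate shares 18 moved beyond their counting interval, and of 86 recomputed gene counts 22 moved by more than 1.5 times. The median of the endothelial identity list over all cells turned to 0.75 at a mitochondrial limit of 50%, and no other list median past 2-fold turned, but 161 of 780 recomputed medians moved beyond their counting interval. Of 2362 recomputed gene ratios 622 moved beyond theirs and 6 turned: Acta2 over all cells (0.28), epithelial Slc12a3 (-0.19) and Umod (-0.82) at a limit of 50%, epithelial Calb1 (0.19) and Scnn1a (1.01) at 10%, and endothelial Ctgf (0.043) with cells thinned. The causes were not tested. At 50% the sham shares were 7.81% epithelial, 4.93% endothelial and 2.59% leukocyte, those of day 7 were 11.8% epithelial, 9.71% endothelial and 67.3% leukocyte, 2486 genes were higher and 937 lower over all cells and 405 lower in the epithelial gate. At 10% the sham shares were 40.1% endothelial and 16.8% leukocyte, those of day 7 were 7.74% epithelial and 74.2% leukocyte, and 990 genes were lower in the epithelial gate. With cells thinned to 1000 UMIs the shares were 7.72%, 14.7% and 6.33% in sham and 6.36%, 5.07% and 32.8% on day 7 (epithelial, endothelial, leukocyte), and the counts higher and lower were 323 and 292 in the epithelial, 282 and 184 in the endothelial and 1264 and 801 in the leukocyte gate. Without cells carrying markers of more than 1 gate the day 7 shares were 9.35%, 8.92% and 57.8%. With a pseudocount of 10 CPM, 395 genes were lower in the epithelial gate, 366 higher and 210.0 lower in the endothelial gate and 395 higher and 286 lower in the leukocyte gate. With no filter on low genes the counts were 1818 and 2464 over all cells, 2767 and 1703 epithelial, 2553 and 1294 endothelial and 3468 and 1456 leukocyte. The sham gates, of 92, 176 and 75 cells, limit what could be detected: the floor of 3 counts lies at 5.96, 5.76 and 10.5 CPM, and the exact upper limits of 0 UMIs at 7.33, 7.08 and 12.9 CPM.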
